A study of Mus musculus with 2 samples.

Results

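The genes described here are mouse genes chosen by a symbol made of Zfp and a number, and most code for C2H2 zinc finger proteins. The genes lie outside the large gene clusters at the distal end of chromosome 2 and on distal chromosome 4. A gene was a member if a protein-coding transcript had exon and intron values above 0 in both libraries and a mean exon value above 5, and the transcript with the highest mean exon value was used. Zfp36 and Zfp42 were left out. Of 334 such genes in the GENCODE M21 annotation (GRCm38), 333 had exon and intron values in the table, 310 had all values above 0 in a transcript, and 268 were members. The remaining 42 of the 310 did not reach the level. The same filter kept 10250 protein-coding genes of the whole series, which are the background below and include the members. The members were thus selected on their exon and intron values in these same libraries, so their level is a description, and a gene with a low value in a single library could pass only through the other one. The exon value was 5 or less in labeled RNA in 8 members and in unlabeled RNA in 10.

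Both libraries came from feeder depleted, wild-type XY mouse embryonic stem cells of the line DTCM23/49, grown on gelatin with serum and leukemia inhibitory factor. The uridine analogue 4-thiouridine (4sU) was given at 200 µM for 10 min, and RNA that had taken it up was biotinylated and pulled down. The pulled-down RNA is the labeled library, which holds newly transcribed RNA, and the supernatant is the unlabeled library, which holds preexisting RNA. The description of this second library calls it preexisting RNA, while its title and RNA label call it total RNA. It is used below as unlabeled RNA, as in the study. Each is a single library of biological replicate 1, so no value below has a replicate check and no test was made. The authors deposited 1 exon and 1 intron value per transcript as a length-normalized relative abundance under the name TPM. The columns add up to 10-fold more than TPM values would. Values are given in this deposited unit, and the depth behind them is unknown. Introns took 15.4% of the labeled and 6.26% of the unlabeled column, and the members' exons took 0.173% and 0.250%. All 10 pluripotency markers examined had an unlabeled exon value of 5 or more. So did 1 of 6 fibroblast markers (Thy1, 14.45), 2 of 6 primitive endoderm markers (Sox7, 8.44, and Gata4, 5.88) and 3 of 4 neural markers. In unlabeled RNA 4 of the 6 fibroblast markers and 3 of the 6 primitive endoderm markers were listed at 0. The neural markers had 157 for Tubb3, 70.5 for Pax6, 31.5 for Neurod1 and 1.56 for Sox1 there.

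A C2H2 zinc finger is a short fold in which a pair of cysteines and a pair of histidines hold a zinc ion. Arrays of such fingers, joined by short conserved linkers, read DNA sequence. Many of the proteins also carry a KRAB domain, which recruits the corepressor Trim28 and, through it, the histone methyltransferase Setdb1, heterochromatin proteins and DNA methylation. KRAB zinc finger proteins are known in embryonic stem cells for silencing endogenous retroviruses and for protecting the methylation of imprinted regions. Their genes have multiplied by local duplication, so neighbours often resemble each other.

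The coding sequences show this repeat structure. The members had a median of 11 fingers (range 0 to 37) in their longest annotated complete protein, whose median length was 584.5 residues. No finger was counted in 8 of the 268, and 213 had at least 1 linker of the usual kind. The last coding exon held a median of 83.4% of the members' coding sequence, against 11.9% over all genes, and the transcripts had a median of 4 exons, against 8. A KRAB pattern was found in 159 members. The pattern was not checked against annotated domains, so members without it may still carry a KRAB domain. The units below each code for 28 residues, 1 finger with the linker that follows it, and the 15 capital bases are the linker codons. They are taken from GENCODE M21 transcripts and read 5′ to 3′. Zfp65 and Zfp738 are the neighbouring members with the highest protein identity, 83.9% over 390 aligned residues. Both units are in the last of 4 exons on the minus strand, at chr13:67708241-67708324 in Zfp65 and chr13:67670335-67670418 in Zfp738. Zfp273 and Zfp493 share 83.7% over 356 residues, with units in the last exon on the plus strand at chr13:67825421-67825504 and chr13:67786680-67786763. Zfp108 and Zfp93, added like the pair before after their values were seen, share 82.5% over 639 residues and have their units in the last exon on the plus strand, at chr7:24260832-24260915 and chr7:24275450-24275533. Zfp568, whose unit is at chr7:30022892-30022975 on the plus strand, is shown as a gene of the silencing list below.
Zfp65: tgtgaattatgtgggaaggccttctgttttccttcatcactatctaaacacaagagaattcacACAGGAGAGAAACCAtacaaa
Zfp738: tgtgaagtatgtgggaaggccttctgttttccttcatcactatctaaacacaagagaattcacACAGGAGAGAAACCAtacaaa
Zfp273: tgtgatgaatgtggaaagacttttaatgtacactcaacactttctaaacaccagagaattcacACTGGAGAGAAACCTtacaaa
Zfp493: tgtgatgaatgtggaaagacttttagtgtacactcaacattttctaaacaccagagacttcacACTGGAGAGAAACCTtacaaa
Zfp108: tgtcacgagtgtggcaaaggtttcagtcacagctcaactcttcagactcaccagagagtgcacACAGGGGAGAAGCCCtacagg
Zfp93: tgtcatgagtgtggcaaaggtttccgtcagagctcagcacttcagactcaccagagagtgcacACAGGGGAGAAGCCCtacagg
Zfp568: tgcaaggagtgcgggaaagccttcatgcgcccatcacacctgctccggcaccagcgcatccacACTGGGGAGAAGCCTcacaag
The units of the first pair, chosen as the most alike of each pair's units, had 83 of 84 bases in common, those of the second 81 and those of the last 79.

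Because reads from such units could come from more than 1 gene, each counted transcript was cut into stretches of 50 bases, and those that also occur in a protein-coding transcript of another gene were counted. The median member had 0% of its stretches in common with another gene, and 146 of 268 had none. The 28 Zfp genes of the chromosome 2 and 4 clusters that passed the same filter had a median of 69.5%, and all had some. Only 24 members reached 20%, and all 24 carried the KRAB pattern. Zfp935 and Zfp781 were at 100%, Zfp960 at 83.3% and Zfp97 at 82.1%. Among genes described below, Zfp934 was at 57.3%, Zfp932 at 54.4%, Zfp738 at 34.2%, Zfp976 at 28.9% and Zfp273 at 24.3%. These 9 were picked out after their values were seen. The values of all 24 depend on how the authors' counting divided reads. The 24 had a median labeled over unlabeled exon log2 ratio of -0.17, and the 146 with none had -0.29.

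The question that the pair of libraries addresses is how much of each gene's RNA was made during the label. Over the 268 members the exon value had a median of 34.1 in labeled RNA and 38.3 in unlabeled RNA, with a range of 2.09 to 1343 and of 1.78 to 3233. Over all 10250 genes the medians were 34.6 and 43.9. The exon log2 ratio, labeled over unlabeled, had a median of -0.34 over the members (95% order-statistic interval -0.41 to -0.26) and -0.43 over all genes (-0.46 to -0.41). The columns are shares of their own library, so only the difference from other genes can be read, and here it was 0.09. These intervals cover the number of genes only, not the measurement error of any gene. The intron value was higher in labeled RNA in 262 of 268 members, while the exon value was higher there in 82. Over all 10250 genes these counts were 10017 and 3469, which are similar shares. The 6 members whose intron value was not higher, singled out after their values were seen, were Zfp185, Zfp352, Zfp457, Zfp551, Zfp580 and Zfp943. The median intron log2 ratio was 1.97, against 2.05 over all genes.

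The members lay closer together in this ratio than all genes did, as did the other zinc finger families described below. Their quartiles were -0.72 and 0.10, a distance of 0.82, against -1.05 and 0.30 for all genes, a distance of 1.34. With a mean exon value above 20, the distances were 0.81 and 1.23. An exon value at least 2-fold higher in labeled RNA was found in 20 members, or 7.46% (95% Wilson interval 4.88 to 11.2%), where the background was 11.5%. A value at least 2-fold lower was found in 40, or 14.9% (11.2 to 19.7%), where the background was 26.9%. Some of these genes passed the filter only through the library where they were high. Of the 20 higher members, 7 had an unlabeled value of 5 or less, as had 352 of the 1178 such genes among all. Of the 40 lower members, 7 had a labeled value of 5 or less, as had 252 of 2755 among all genes. Counted from the median of all genes, 34 members were at least 1 log2 unit above it (12.7%, background 18.6%) and 14 at least 1 below it (5.22%, background 12.1%). The members' share was thus below the background on both sides.

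**Figure D1:**
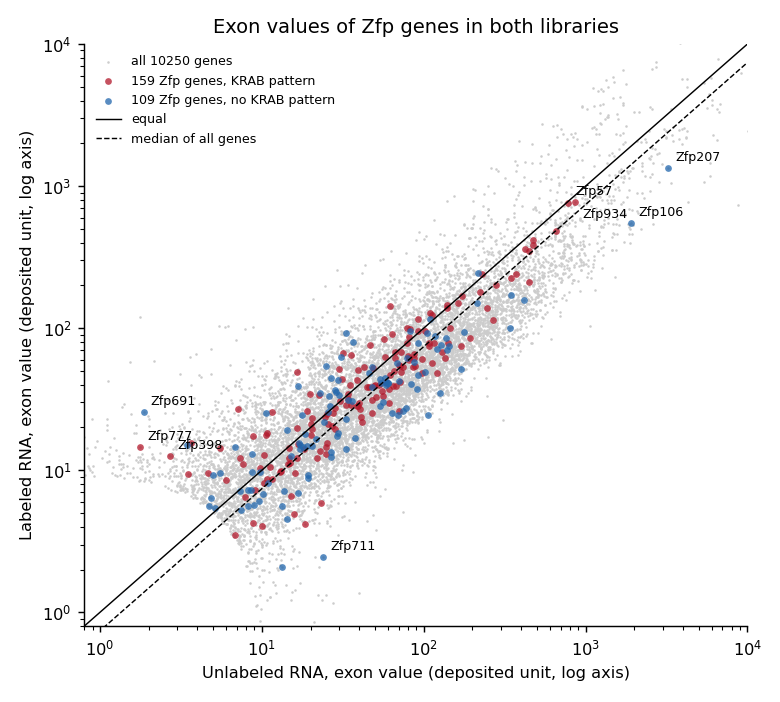
Exon value in labeled RNA (vertical, log axis) against unlabeled RNA (horizontal, log axis) in the deposited unit, for all 10250 genes in grey and the 268 Zfp genes in red (KRAB pattern) and blue (none). The solid line marks equal values and the dashed line the median of all genes, -0.43 on the log2 scale. Most Zfp genes lie near the dashed line, and Zfp691, Zfp777 and Zfp711 lie farthest from it.

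The number of exons changes this comparison. Members have few exons, and genes with few exons had higher exon ratios across the series. Among transcripts with 4 exons the median was -0.32 over 83 members (interval -0.41 to -0.16) and -0.10 over 968 other genes (-0.20 to -0.03). With 5 to 6 exons it was -0.37 over 82 members and -0.12 over 1739 other genes, and with 7 to 10 exons -0.76 over 29 members and -0.34 over 2420 others. With 11 or more exons the order turned, with -0.27 over 16 members and -0.74 over 3745 others. When genes were divided both by exon number and by the members' quartiles of mean exon value, 17 of 20 classes held at least 5 members. The members' median exon ratio was above that of other genes in 3 of the 17. The small surplus over all genes was therefore not present in most classes of like genes.

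Intron to exon ratios were higher in the members than over all genes in both libraries, as they were in the Zbtb, Zscan and Zkscan genes described below. The labeled ratio had a median of 0.540 over the members (interval 0.480 to 0.604) and 0.401 over all genes (0.393 to 0.411). The unlabeled ratio had a median of 0.114 (0.0987 to 0.133), against 0.0719 (0.0699 to 0.0743). The labeled ratio was larger than the unlabeled one in 94.8% of members and 94.2% of all genes. The difference between members and other genes was also found within classes. The labeled ratio of the members was above that of other genes in 15 of the 17 classes of exon number and level, and the unlabeled ratio in 12. In the members' top quartile of mean exon value the labeled ratio was 0.404 over 67 members (interval 0.349 to 0.521). It was 0.225 over 3504 other genes in that range (0.218 to 0.233), and the unlabeled ratios were 0.0712 and 0.0317. This range has no upper bound, also within the classes above. The median mean exon value in it was 111.1 in members and 160.4 in other genes, so level was not matched there. In the bottom quartile the labeled ratios were 0.995 and 0.729. The ratio falls with level in the members as elsewhere. Spearman's correlation with the mean exon value across 268 members was -0.42 in labeled and -0.43 in unlabeled RNA, and the points share their libraries and the exon value itself.

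**Figure D2:**
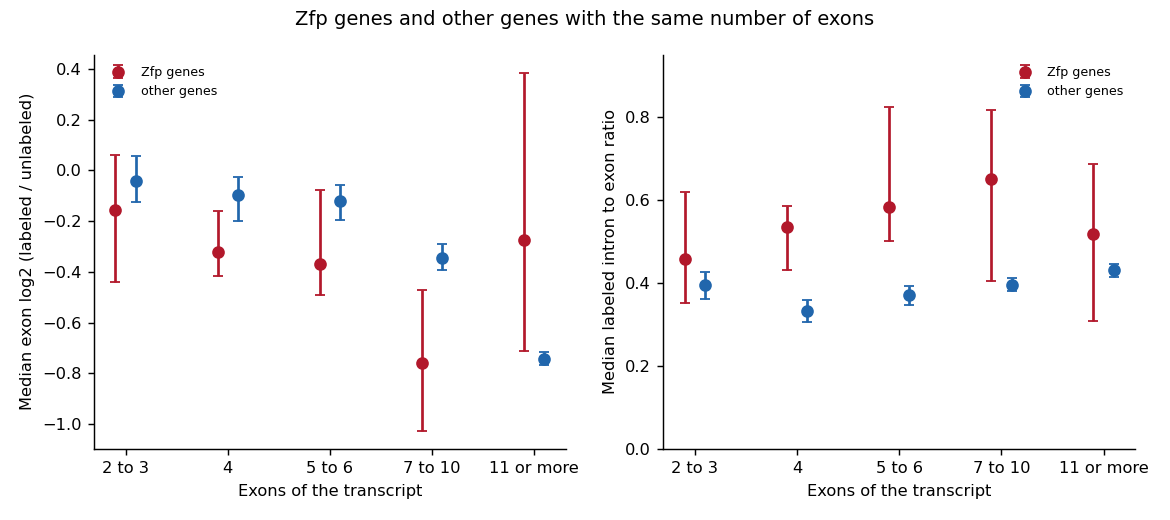
Median exon log2 ratio, labeled over unlabeled (left), and median labeled intron to exon ratio (right) by the number of exons of the transcript, for Zfp genes in red and all other genes in blue. Bars are 95% order-statistic intervals over genes. The red exon medians lie below the blue ones up to 10 exons, and the red ratio medians lie above the blue ones in every class.

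In the model used in this study, precursor RNA is made and processed, and mature RNA degraded, at constant rates, and processing is the only fate of an intron, so a labeled ratio of 1 or more, or one not above the unlabeled ratio, is not compatible with it. The labeled ratio was 1 or more in 58 members, or 21.6% (17.1 to 27.0%), where the background was 14.4%. Another 12 members (4.48%, background 4.91%) had a labeled ratio below 1 that did not exceed the unlabeled one. The unlabeled ratio itself was 1 or more in 11 members (4.10%, background 2.88%). This left 198 compatible members, or 73.9% (68.3 to 78.8%), with a background of 80.7%. Of these, 80 lay above the line on which the labeled ratio equals 1/(2 - unlabeled ratio), where the model has a single solution (29.9% of members, background 21.9%), and 118 lay between the line and the diagonal. There 16 had 2 solutions and 102 none. The median half-life that the model gives was 16.98 min over the 198 members (quartiles 9.81 and 30.1 min) and 19.7 min over 8268 compatible genes. These half-lives rest on the treatment of genes without a solution, which were 102 of the 198 members and 5297 of the 8268 genes. When both rates were fitted to those 102 members, the members' median was 4.89 min. When the second library was read as total RNA, as its title and RNA label call it, the members' median was 42.9 min. These alternatives were not computed over all genes, so the difference between 16.98 and 19.7 min was not checked under them.

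**Figure D3:**
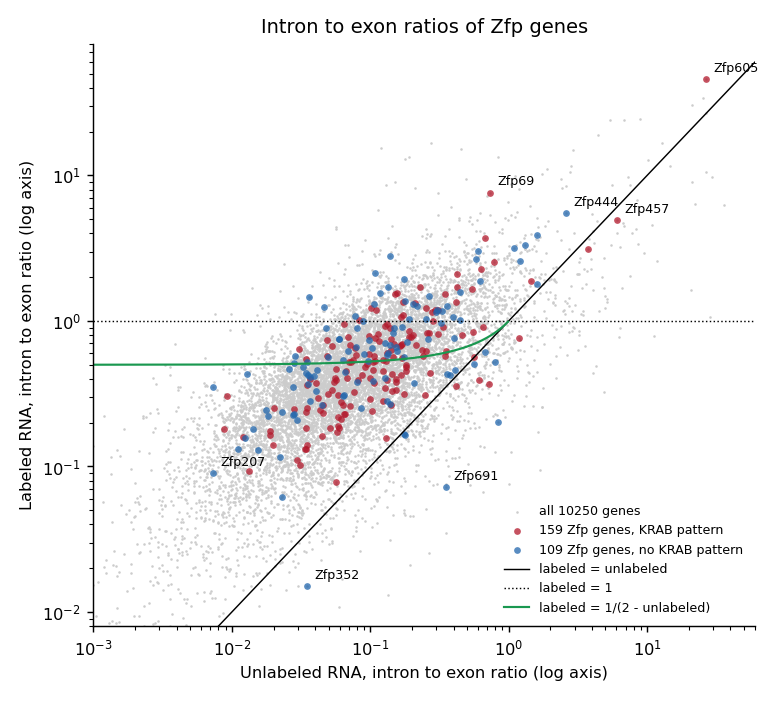
Intron to exon ratio in labeled RNA (vertical, log axis) against unlabeled RNA (horizontal, log axis) for all 10250 genes in grey and the Zfp genes in red (KRAB pattern) and blue (none). The 198 compatible Zfp genes lie below the dotted line at 1 and above the solid diagonal, 80 of them above the green curve. Zfp605 stands alone at the upper right.

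Zfp605 had the highest labeled ratio. Its intron value was 1811 in labeled and 1729 in unlabeled RNA, and its exon value 39.4 and 64.7, which gave ratios of 45.9 and 26.7. The processed pseudogene Gm15484 lies within the Zfp605 transcript on the opposite strand, at chr5:110118022-110118849, and its own exon values were 35822 and 33298. Its part in the intron value of Zfp605 was not tested. Zfp605 alone made up 18.5% of the members' summed labeled intron values and 40.0% of the unlabeled ones, while the median labeled ratio over the other 267 was 0.538. The next were Zfp69 with 7.61, Zfp444 with 5.54, Zfp457 with 4.91 and Zfp668 with 3.88. Zfp69 had intron values of 31.9 and 13.7 and exon values of only 4.19 and 18.6. Zfp444 had intron values of 40.0 and 21.3 and exon values of 7.22 and 8.19. Zfp457 differed from these, since both its intron value (42.8 labeled, 65.3 unlabeled) and its ratio (4.91 and 6.09) were higher in unlabeled RNA. Its neighbour Zfp458, 80.4% identical in protein and named for that reason, had ratios of 0.103 and 0.0312. Zfp668 overlaps the start of Zfp646, and it stood just inside the level threshold. Over all members, 96 overlap another annotated gene, and their median labeled ratio was 0.529, against 0.565 for the 172 that do not.

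The lowest labeled ratio was that of Zfp352, a gene with its coding sequence in a single exon that is expressed in the early embryo. Its intron value was 0.22 in labeled and 0.24 in unlabeled RNA, its exon value 14.7 and 6.84, and its labeled ratio 0.0150. Zfp330 followed with 0.0621 and Zfp691 with 0.0722, then Zfp612 with 0.0786 and Zfp207 with 0.0896. Zfp612 is a KRAB gene with exon values of 66.5 and 31.5, and thus a case of a low intron ratio with more exon signal in labeled RNA.

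At the upper end of the exon ratio were Zfp691, Zfp777, Zfp398, Zfp629, Zfp688 and Zfp949. Zfp691 had an exon value of 25.6 in labeled and 1.86 in unlabeled RNA, a log2 ratio of 3.78. Zfp777 had 14.6 and 1.78 (3.04), and Zfp398 had 12.6 and 2.72 (2.21). Zfp629 had 15.1 and 3.45 (2.13), Zfp688 had 15.5 and 3.64 (2.09), and Zfp949 had 26.9 and 7.12 (1.92). All but Zfp949 had an unlabeled value below 5. Summed over all coding transcripts of the gene, 4 of the 6 stayed at least 2-fold higher, with a log2 ratio of 1.77 for Zfp398, 1.75 for Zfp688 and 1.28 for Zfp777, while Zfp691 had 0.99 and Zfp629 had 0.65. In Zfp691 the other 3 coding transcripts ranged from -0.36 to 0.28. In Zfp777 a single coding transcript listed was lower in labeled RNA, at -1.09, and the rest were higher. In Zfp949 all 4 coding transcripts listed were higher in labeled RNA, up to 2.43 on the log2 scale, and the sum gave 1.94, the highest of any member.

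At the lower end were Zfp711, Zfp523, Zfp69, Zfp740, Zfp551 and Zfp451. Zfp711, an X-linked gene, had an exon value of 2.44 in labeled and 24.0 in unlabeled RNA, a log2 ratio of -3.30. Zfp523 had 2.09 and 13.3 (-2.67), and Zfp69 had the values given above (-2.15). Zfp740 had 24.6 and 106.4 (-2.11), Zfp551 had 5.87 and 23.1 (-1.98), and Zfp451 had 35.3 and 125.9 (-1.84). Summed over coding transcripts, all 6 stayed at least 2-fold lower in labeled RNA, between -1.99 and -1.06. The labeled value was below 5 in Zfp711, Zfp523 and Zfp69. In Zfp451 the coding transcripts listed ranged from -1.84 to 0.89, the highest with 42.85 in labeled and 23.1 in unlabeled RNA. In 5 of the 6 the counted transcript is annotated with an incomplete coding sequence, as is the case for 31 of all 268 members. Among the 6 highest members it is the case for 2, Zfp691 and Zfp777. The 31 had a median exon log2 ratio of -0.64, and the 237 members with a complete one -0.31. Over all genes, the 1182 with an incomplete one had a median of -0.57.

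The most abundant members were Zfp207, Zfp106 and Zfp934. Zfp207, a spindle assembly and RNA-binding factor, had exon values of 1343 in labeled and 3233 in unlabeled RNA. Zfp106, an RNA-binding protein, had 550.6 and 1901. Zfp934, a KRAB gene of a chromosome 13 group, had 771.3 and 862.4. Just inside the level threshold were Zfp668, Zfp94 and Zfp13, with mean exon values of 5.28, 5.16 and 5.13, and just outside were Zfp879, Zfp513 and Zfp334, with 5.00, 4.63 and 4.59.

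All 8 genes listed for imprint and retroelement silencing were members. Zfp57, which binds methylated imprint control regions, was the most abundant, with 766.1 in labeled and 781.0 in unlabeled RNA. Its log2 ratio was -0.03, which became -0.34 when the gene's other coding transcripts were added and 0.12 when exon rows were rescaled to the same sum. Zfp445, which acts at imprints as well, had 60.2 and 97.2 (-0.69). Zfp568, the repressor of a placental Igf2 transcript, had 113.3 and 269.0 (-1.25), the lowest of the list and its single 2-fold decrease. Zfp809, which recognizes the primer binding site of murine leukemia virus, had 68.1 and 129.5 (-0.93). Zfp932 had 240.0 and 373.9, and Zfp708 had 28.9 and 35.6. The genes Zfp961 (144.7 and 139.1) and Zfp819 (98.7 and 82.7) were slightly higher in labeled RNA, but Zfp961 turned to -0.13 with leakage subtracted and Zfp819 to -0.15 with values summed over transcripts. The list's median was -0.47, close to that of all genes. Its median labeled ratio was 0.440, with 0.824 in Zfp809 and 0.234 in Zfp961 as the extremes, and none was at 1 or more.

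Factors tied to pluripotency and to general promoter activity had mostly lower exon values in labeled RNA, as most genes did. Of 11 listed, 9 were members, and Zfp281 and Zfp296 were not. Their median log2 ratio was -0.92, with 3 of 9 at least 2-fold lower (33.3%, background 26.9%) and none 2-fold higher. Their transcripts had a median of 9 exons, and members with 7 to 10 exons had a median of -0.76. Zfp217 had exon values of 26.3 and 74.9 (-1.51), Zfp292 had 170.0 and 346.2 (-1.03), and Zfp740 is given above. Zfp148 had 46.5 and 91.7 (-0.98), and Zfp462 had 94.1 and 178.0 (-0.92). Zfp384 and Zfp131 stood at -0.71 and -0.59, and Zfp143, an activator bound at many promoters, at -0.50. Only Zfp410, the activator of the remodeler gene Chd4, was higher in labeled RNA, with 19.2 and 14.2 (0.43). Zfp740 and Zfp217 had labeled ratios of 2.15 and 1.07.

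Of 9 chromatin cofactors listed, 8 were members, with a median of -0.93 and a median of 7.5 exons. Zfp518 was not a member. Zfp451, a SUMO ligase, Zfp335 (6.91 and 16.6, -1.27), Zfp516 (16.9 and 37.8, -1.16) and Zfp592 (12.5 and 26.8, -1.10) were at least 2-fold lower in labeled RNA, 4 of 8 against a background of 26.9%. Zfp687 had 17.3 and 29.3 and Zfp532 had 75.8 and 127.2, which together with Zfp592 form a complex with Zmynd8. Zfp644, a partner of the methyltransferases Ehmt1 and Ehmt2, had 151.5 and 213.7. Zfp827 had 21.8 and 24.2 and was closest to equal, at 0.00094 on the log2 scale with rescaled exon rows. Labeled ratios ran from 0.281 in Zfp644 to 0.890 in Zfp451.

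Genes with roles in RNA, ribosomes, ubiquitin and the spindle were mixed. Of 12 listed, 10 were members, without Zfp593 and Zfp830, and their median was -0.33. Zfp106 (-1.79), Zfp638 (157.9 and 417.9, -1.40) and Zfp207 (-1.27) were at least 2-fold lower in labeled RNA, a share of 30.0% that is near the background of 26.9%. At the other end Zfp598, the ubiquitin ligase for collided ribosomes, had 36.7 and 28.1 (0.39), and Zfp622, a ribosome maturation factor, had 43.3 and 29.7 (0.55). Zfp330 had 245.5 and 217.3. Between these were Zfp346 (-0.55), Zfp706 (-0.42), Zfp91 (-0.24) and Zfp326 (-0.18). Zfp346, which binds double-stranded RNA, had the only labeled ratio of 1 or more in the list, 3.002, from intron values of 122.9 and 35.8.

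**Figure D4:**
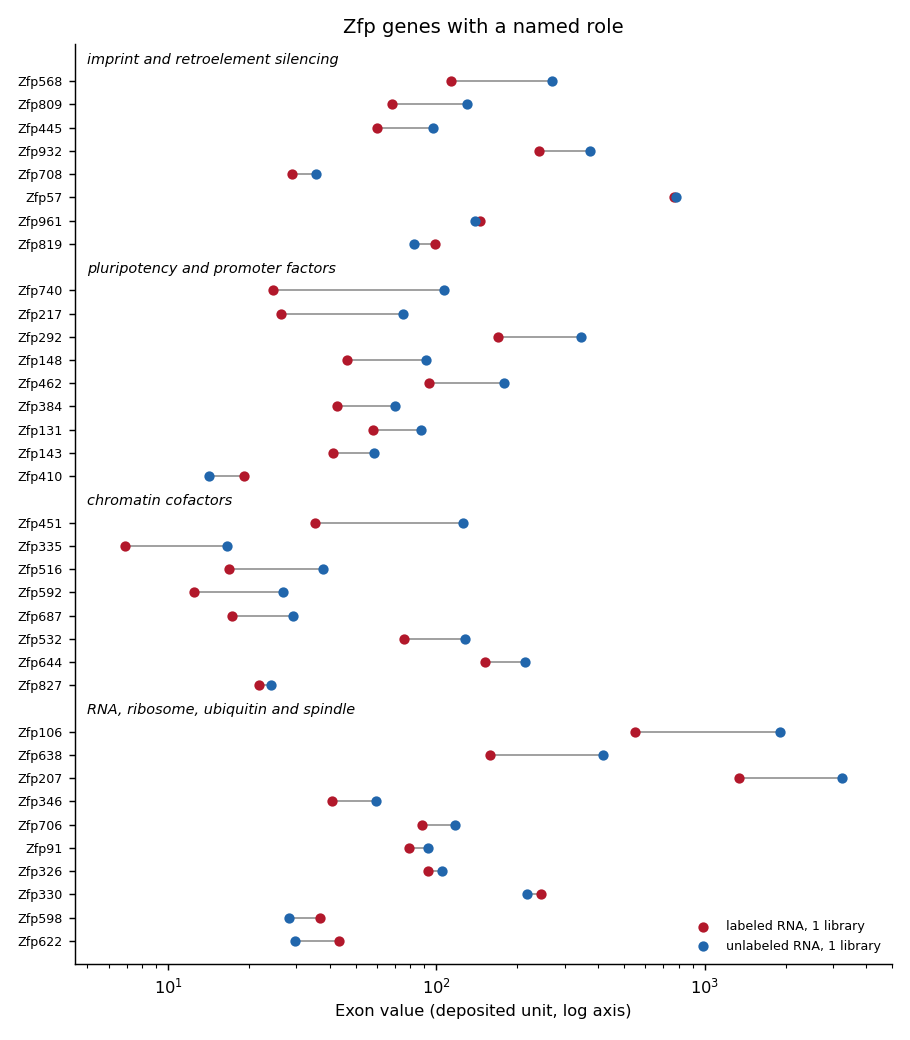
Exon values of the 35 members with a named role in labeled RNA (red) and unlabeled RNA (blue), 1 library each, on a log axis in the deposited unit. Genes are ordered within each list by their log2 ratio. Blue lies to the right of red in 8 of 9 pluripotency and promoter factors and in all 8 chromatin cofactors, where the exon value was higher in labeled RNA in 3469 of all 10250 genes, though with exon rows rescaled to the same sum Zfp827 is at 0.00094 on the log2 scale.

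The genes through which KRAB proteins act had lower exon ratios than the KRAB genes themselves. All 34 corepressor genes listed passed the filter. Trim28 had exon values of 751.8 in labeled and 1653 in unlabeled RNA (-1.14), Setdb1 had 80.9 and 132.7 (-0.71), Dnmt1 had 99.1 and 316.2 (-1.67), and Daxx had 33.5 and 244.9 (-2.87), the lowest of the list. At its upper end Mbd3 had 39.1 and 24.5 (0.67). These 5 were picked from the list after their values were seen. The list's median was -1.17, with 23 of 34 at least 2-fold lower and none 2-fold higher, where the background for a 2-fold lower value was 26.9%. The 159 KRAB members had a median of -0.32 and 15 at least 2-fold lower, or 9.43%. The median labeled ratio was 0.187 in the corepressor genes and 0.525 in the KRAB members. The corepressor genes were also more abundant, with a median mean exon value of 227.7 against 42.0, and had more exons, with a median of 13.5 against 4. Other genes with 11 or more exons had a median of -0.74 and 35.6% at least 2-fold lower. The part of level and exon number in the difference was not tested.

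Within the members, genes with and without the KRAB pattern had similar medians, though the group without it may include KRAB genes that the pattern misses. The exon log2 ratio was -0.32 over 159 with the pattern (interval -0.40 to -0.16) and -0.41 over 109 without (-0.57 to -0.25), and these intervals overlap. The labeled ratio was 0.525 and 0.588. The shares at the ends were not tested against each other. Of those without the pattern, 25 (22.9%) were at least 2-fold lower in labeled RNA, and 31 (28.4%) had a labeled ratio of 1 or more. With the pattern, the counts were 15 (9.43%) and 27 (16.98%). The backgrounds were 26.9% and 14.4%, so the first share was near the background without the pattern, and the second near it with the pattern. By finger number the median exon ratio was -0.44 over 41 members with up to 4 fingers and -0.28 over 58 members with more than 15, with overlapping intervals.

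**Figure D5:**
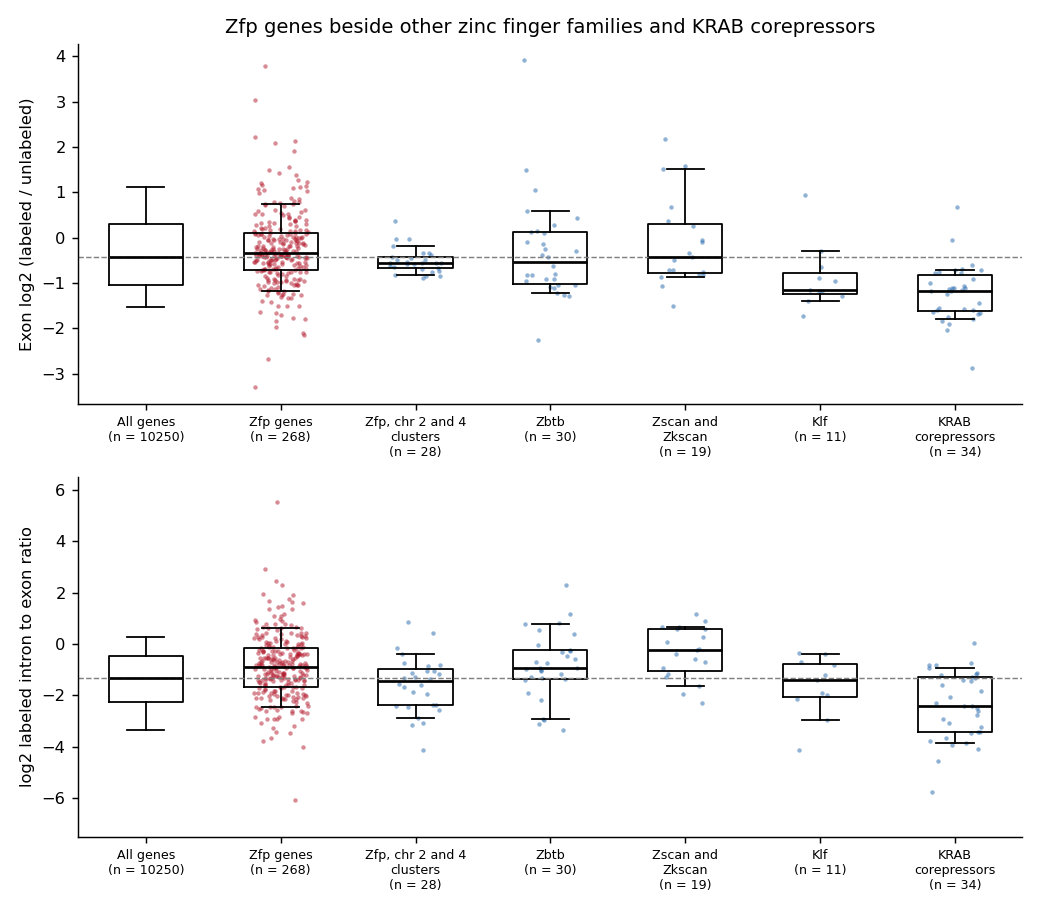
Exon log2 ratio, labeled over unlabeled (top), and log2 labeled intron to exon ratio (bottom) for all genes, the Zfp genes, other zinc finger families and the KRAB corepressor genes. Boxes show the quartiles and median, whiskers the 10th and 90th percentiles, points single genes, and the dashed line the median of all genes. The dashed line crosses the Zfp box in both panels, and the Zfp median lies above it in both, while the corepressor box lies below it in the top panel.

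Other zinc finger families gave a frame for these values. The 28 Zfp genes of the chromosome 2 and 4 clusters had a median mean exon value of 1315, against 38.6 in the members, a median exon log2 ratio of -0.56 and no gene at least 2-fold away from equal in either direction. Their median labeled ratio was 0.364. The 30 Zbtb genes had -0.53 and 0.521, and the 19 Zscan and Zkscan genes -0.42 and 0.842. The 11 Klf genes had -1.17 and 0.375, and 6 of them were at least 2-fold lower in labeled RNA, where the background was 26.9%. The intervals of the exon medians of the Zbtb (-0.92 to -0.09), Zscan and Zkscan (-0.79 to 0.36) and Klf genes (-1.40 to -0.28) all reached that of the members, and that of the cluster genes (-0.64 to -0.46) did not.

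Members were not spread evenly over the genome, with 68 on chromosome 7, 40 on chromosome 17 and 30 on chromosome 13. There were 8 runs of at least 5 members no more than 200 kb apart. The one with the most members lay at chr13:67038596-67827002 with 19 members, including Zfp65, Zfp738, Zfp457 and Zfp708, and the next at chr17:21383748-22456689 with 18. All members of both carry the KRAB pattern. Their median exon log2 ratios were -0.48 and -0.42, no member of either was 2-fold higher in labeled RNA, and 1 of each was 2-fold lower. The shares of higher and lower genes were 7.46% and 14.9% over all members, and 11.5% and 26.9% over all genes. The runs are small, and their counts were not tested against these shares. On chromosome 17 the whole range was -1.03 to -0.04. The 13 members at chr7:29768552-30169750, which include Zfp568, had a median of -0.08, with 1 gene at least 2-fold higher and 1 lower. The 8 at chr17:32765496-33110705 had -0.40, the 5 at chr7:27731389-28014115 had 0.01 and the 5 at chr8:69610857-69791178 had -0.40. None of these 3 runs held a gene at least 2-fold higher, where the share over all genes was 11.5%. A run of 9 members at chr7:24081924-24316666, which holds Zfp108 and Zfp93, had a median labeled ratio of 1.06, with 6 of 9 at 1 or more. The share was 21.6% over the members and 14.4% over all genes. The run was low in level, with a median mean exon value of 19.6 and a range of 5.16 to 37.7. In the members' bottom quartile of level the share was 49.3% of members and 35.0% of other genes. In the next quartile it was 17.9% and 15.65%. A run of 5 at chr6:47819266-48086593 had a median exon log2 ratio of 1.43 and was low in level, with a median mean exon value of 8.20. Zfp777 and Zfp398 are given above, and Zfp786 had 9.38 in labeled and 3.49 in unlabeled RNA (1.43). In the same run Zfp746 had 28.2 and 26.4 (0.09), and Zfp212 had 4.56 and 14.2 (-1.64). Thus 3 of its 5 genes were at least 2-fold higher in labeled RNA (background 11.5%) and 1 was lower (background 26.9%). All 4 had a value below 5 in a library, so they passed the level filter only through the library where they were high. In the members' bottom quartile of level, 13.4% of members and 18.65% of other genes were at least 2-fold higher. The members other than Zfp398 and Zfp777 were named after their values were seen.

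Neighbouring members were compared in the same measures. Zfp65 had exon values of 63.3 in labeled and 80.1 in unlabeled RNA, and Zfp738 had 139.7 and 247.6. Their log2 ratios were -0.34 and -0.83, and their labeled intron to exon ratios 0.529 and 0.164. Zfp108 had 21.2 and 25.5, and Zfp93 had 30.5 and 30.3, with log2 ratios of -0.27 and 0.01 and labeled ratios of 0.0936 and 0.755. Zfp273 had 50.3 and 65.4, and Zfp493 had 53.2 and 74.7, with log2 ratios of -0.38 and -0.49 and labeled ratios of 0.462 and 0.327. Of the pairs with finger units printed above, Zfp273 and Zfp493 were thus closest in their intron to exon ratio, and the others were farther apart. Across 91 pairs of members that start within 50 kb of each other, the exon log2 ratios differed by a median of 0.52. Across 14 of these pairs with at least 70% protein identity it was 0.34, and across all 35778 pairs of members 0.69. The 125 members with a Zfp gene within 50 kb had exon log2 ratio quartiles of -0.55 and 0.14. The 143 with none lay farther apart, with quartiles of -0.90 and 0.06, and are included in the figure for all pairs. The part of this spread and of shared reads in the pair differences was not tested.

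The upstream sequence of the members was compared with that of all RefSeq promoters, since members of a duplicated family may share it. By symbol, 224 of 268 members matched a RefSeq promoter (GRCm38.p6), and in 172 a RefSeq start lay within 500 bases of the start of the counted transcript. In the 250 bases before that start, CCAAT on either strand was present in 48.3% of the 172 members, against 33.9% of all 32851 RefSeq promoters, expressed or not. GGGCGG on either strand was present in 37.8% and 32.7%, and TATAAA in 7.56% and 12.4%. Members with and without the KRAB pattern differed here. CCAAT was found in 57.3% of 103 members with the KRAB pattern and in 34.8% of 69 without, while GGGCGG was found in 29.1% and 50.7%. Windows of KRAB members held a median of 8 CG dinucleotides, and those of the others 13, where the median over all RefSeq promoters was 6. None of these motifs contains another, and a match is not a binding site. As examples chosen after their values were seen, the window of Zfp976 (chr7:42642605-42642854, minus strand), the most abundant member with a matched start and no annotated transcript over its window, is printed with its CCAAT in capitals, and that of Zfp398 (chr6:47835411-47835660, plus strand), of the chromosome 6 run, has none of these motifs.
Zfp976: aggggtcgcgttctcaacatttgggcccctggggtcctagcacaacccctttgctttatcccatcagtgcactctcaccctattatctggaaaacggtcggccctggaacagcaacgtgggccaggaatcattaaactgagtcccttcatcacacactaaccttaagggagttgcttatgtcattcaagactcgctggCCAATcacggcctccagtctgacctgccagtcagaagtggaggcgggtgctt
Zfp398: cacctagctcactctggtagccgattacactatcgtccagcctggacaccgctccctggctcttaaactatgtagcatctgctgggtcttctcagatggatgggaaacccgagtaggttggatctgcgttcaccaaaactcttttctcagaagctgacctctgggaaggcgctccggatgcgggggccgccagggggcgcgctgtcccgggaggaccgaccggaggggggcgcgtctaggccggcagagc
Zfp976 had exon values of 351.1 in labeled and 447.3 in unlabeled RNA, a log2 ratio of -0.35, near the median of the members, and Zfp398 had 2.21.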

How the data were processed

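Labeled RNA and unlabeled RNA were each sequenced in 1 library. The authors aligned the reads with STAR 2.5.0 to mm10 (GRCm38), quantified exons and introns of each transcript with RSEM, and deposited values called TPM. These deposited values sum to 10 times a TPM column and were therefore handled as a score of relative abundance. Without the depth, counting error was not estimated. Biotypes, coordinates and coding sequences were taken from GENCODE M21.

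The members and gene lists were chosen with earlier results of these data known. The KRAB pattern, a regular expression for the KRAB A box matched in any coding transcript of the gene, was set after the protein sequences and first values had been seen. A finger was counted as a pair of cysteines and a pair of histidines at C2H2 spacing, and the linker as TGEKP or TGERP. No test was made. Counts and medians over members were set beside those over all 10250 genes that pass the same filter, with 95% Wilson intervals for shares and 95% binomial order-statistic intervals for medians, both over genes. Half-lives came from the model of the study, with the larger root where there were 2, a grid of 3999 points and a distance minimum where there was none. The solver was tested on simulated rates. Neighbouring proteins were aligned globally with BLOSUM62.

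Genes were named by a rule: the 6 highest and 6 lowest exon log2 ratios, the 5 highest and 5 lowest labeled intron to exon ratios, the 3 highest mean exon values, the 3 genes on each side of the level threshold, members of 4 role lists, and the neighbours with the highest identity. Other genes were named after their values were seen, as the text says. Alternatives were a mean exon minimum of 20, values summed over transcripts, subtraction of leakage, a pseudocount of 0.1, rescaled exon rows, members without neighbours, other treatments of the model's solutions and, added after the data were seen, complete coding sequences only, members with few shared stretches of 50 bases and a narrower KRAB pattern. Biopython 1.88, pandas 2.3.3, matplotlib 3.10.9, numpy 2.4.6 and scipy 1.17.1 were run under Python 3.11.15.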

Additional observations from a re-analysis of the deposited data

How the results depend on the processing

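No paired analysis was possible because each pool has a single library and no test was made. With a mean exon minimum of 20, which keeps 182 members, the median exon log2 ratio of the members was 0.18 above that of all genes (0.09 as reported), the median labeled intron to exon ratio was 0.440 and the unlabeled one 0.0802, 11.5% had a labeled ratio of 1 or more, and 4.40% were at least 2-fold higher in labeled RNA. With that minimum the same measures over all genes were 0.325, 0.0525, 6.25% and 8.80%. With values summed over the coding transcripts of a gene, the labeled ratio was 0.650, the unlabeled ratio 0.154 and the share at 1 or more 30.0%, and over all genes 0.513, 0.0995 and 21.9%. With leakage of 0.129 times the unlabeled value subtracted, the labeled ratio was 0.629 (all genes 0.486). The median half-life was 4.89 min with both variables fitted and 42.9 min with the second library read as total RNA. The other 52 values of the 8 main measures under an alternative stayed within the interval of the reported value, and none of the differences reported with an interval apart from 0 changed sign. The difference in log2 labeled ratio between members with and without the KRAB pattern was -0.16, with an interval that includes 0, and 0.15 without members that have a Zfp neighbour within 50 kb. Of 223 values of 56 named genes under an alternative, 16 moved by more than 1.5-fold, all under summed transcripts or leakage, and none at least 2-fold away from equal changed sign. With exon rows rescaled to the same sum, the median exon log2 ratio of all genes moved from -0.43 to -0.28, and that of the members by as much. The unknown depth limits genes with low values most, such as Zfp691 and Zfp711.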
